A study of Mus musculus with 6 samples.

Results

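Potassium channel subunits were described in the hippocampus of aged Tg2576 mice through all probe sets of the chip that carry a single gene symbol starting with Kcn. Kcnj13 and Kcne2, which the choroid plexus expresses, were left out. Of 165 such probe sets for 82 genes, 103 probe sets for 58 genes reached a mean of 100 in any of the 3 groups and were kept. The other 62 probe sets fell below this level in every group, and 24 genes had no other probe set. Of the kept genes, 56 code for channel subunits, and 2, Kcnq1ot1 and Kcnmb4os2, are noncoding transcripts named after a neighbouring channel gene. The kept probe sets nearest to the limit were those of Kcnj12, Kcnj9 and Kcnd3, with highest group means of 114, 108 and 101. Just outside it lay probe sets of Kcns1, Kcnma1 and Kcna3, at 99.3, 98.8 and 93.2. Of the kept probe sets, 92 reached 100 in all 3 groups, 6 in 2 groups and 5 in 1 group. The last 5, for Kcna2, Kcna6 (2 probe sets), Kcnd3 and Kcnj3, were kept through their highest group alone. The counts below therefore describe the kept probe sets and not every potassium channel gene.

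All animals were male Tg2576 mice on a C57BL/6 background (C57BL/6J in the study's methods), which express human amyloid precursor protein with the Swedish double mutation from a prion protein promoter in neurons and deposit amyloid plaques with age. The groups were untreated mice of 18 months with a high plaque load (Tg-18mo), mice of 18 months that had drunk captopril (20 mg/kg per day), which blocks the enzyme that makes angiotensin II, for 6 months (Tg-18mo-ACEI), and untreated mice of 12 months with a low plaque load (Tg-12mo), the age at which treatment began. Every group carried the transgene, so none shows the level of a non-transgenic hippocampus. Hippocampal RNA of 4 mice was pooled for each of the 6 Affymetrix chips, with 2 chips per group. The values are linear signal intensities without a physical unit. They compare 1 probe set between chips, and signals of different probe sets were not ranked against each other as transcript levels.

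Potassium channels let potassium ions leave the neuron and thereby set its resting potential, end each action potential and limit how often it fires. Pore-forming subunits assemble as tetramers or dimers, and silent or auxiliary subunits change how many channels reach the membrane and how fast they open and close. In hippocampal pyramidal cells an A-type current in the dendrites damps incoming signals, a delayed rectifier repolarizes the spike, and calcium-activated, M-type, inwardly rectifying and leak currents set the excitability between spikes.

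Promoter windows of the genes with the largest rises and the largest fall with captopril are shown first, since they differ in base composition. Each window runs from 250 bases before to 50 bases after the RefSeq transcription start, read 5′ to 3′ on the gene's strand in build GRCm38.p6. Capitals mark matches on either strand to any of the motifs searched, the TATA box TATAAA, the CCAAT box, the GC box GGGCGG and the cyclic AMP response element TGACGTCA.
Kcnd2, chr6:21215096-21215395, plus strand: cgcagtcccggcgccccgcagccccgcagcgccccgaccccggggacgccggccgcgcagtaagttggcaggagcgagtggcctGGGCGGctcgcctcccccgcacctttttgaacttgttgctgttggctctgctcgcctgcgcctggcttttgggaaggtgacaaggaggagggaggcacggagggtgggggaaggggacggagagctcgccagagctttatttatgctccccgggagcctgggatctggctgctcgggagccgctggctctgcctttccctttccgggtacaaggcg
Kcnc1, chr7:46396218-46396517, plus strand: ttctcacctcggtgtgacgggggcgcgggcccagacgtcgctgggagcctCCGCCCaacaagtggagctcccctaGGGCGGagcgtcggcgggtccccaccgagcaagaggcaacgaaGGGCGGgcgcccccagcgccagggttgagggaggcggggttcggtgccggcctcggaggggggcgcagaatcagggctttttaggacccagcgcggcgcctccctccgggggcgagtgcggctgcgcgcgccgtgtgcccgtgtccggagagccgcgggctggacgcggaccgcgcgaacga
Kcna5, chr6:126535506-126535805, minus strand: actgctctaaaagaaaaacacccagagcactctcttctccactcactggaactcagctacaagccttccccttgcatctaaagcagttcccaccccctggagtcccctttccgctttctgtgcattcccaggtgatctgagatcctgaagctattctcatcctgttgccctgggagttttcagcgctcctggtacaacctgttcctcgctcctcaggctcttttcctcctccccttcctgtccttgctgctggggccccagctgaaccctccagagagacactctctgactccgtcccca
The Kcnd2 window held 26 CpG dinucleotides and 1 match to GGGCGG, and the Kcnc1 window held 41 CpG dinucleotides and 3 such matches. The Kcna5 window held 4 CpG dinucleotides and no match to a searched motif. RefSeq windows were at hand for 43 of the 58 genes, 65 windows in all, with a median of 9 CpG dinucleotides against 7 in all 32851 windows. GGGCGG was present in 29 of the 65 windows (44.6%) and in 35.7% of all windows. CCAAT was present in 22 (33.8%, all windows 37.4%), TATAAA in 3 (4.62%, all windows 13.6%) and TGACGTCA in 0 (all windows 1.79%). These matches describe letters in the window only.

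Treatment with captopril for 6 months was accompanied by higher signals on probe sets of Kcnd2, Kcnc1 and Kcna1, pore subunits of voltage-gated channels, and by lower signals on probe sets of Kcna5, Kcnip3, Kcnh2 and Kcnj4. The brightest probe sets of Kcnd2 and Kcna1 were not called. In the comparison of Tg-18mo-ACEI with Tg-18mo, 27 of the 103 probe sets (26.2%, 18 genes) were higher and 17 (16.5%, 14 genes) were lower at an adjusted p under 0.05 in limma. Among all 23262 probe sets in the test, these shares were 15.9% and 17.7%. With the brightest probe set of each gene alone, 11 were higher and 12 lower. Of the 27 higher probe sets, 2 (Kcna6 1441049_at and Kcnj3 1444336_at) were kept through the treated group alone, and 25 were higher and 17 lower without the 5 probe sets kept through a single group. A difference of at least 1.5-fold was also reached by 14 higher probe sets, these 2 included (all probe sets 6.71%), and 6 lower ones (all probe sets 4.18%). The study's thresholds, a 2-fold difference with p of at most 0.01 before adjustment (limma's p is used here), were passed by 4 higher probe sets (all probe sets 3.03%) and 1 lower one (all probe sets 1.06%). The median log2 difference of the 103 probe sets was -0.03, against -0.04 over all probe sets tested, and dividing each chip by its median turned the former to 0.00437. Such p-values rest on the spread between the 2 chips of pooled RNA in each of the 3 groups, joined with a spread borrowed across probe sets. This spread may be technical. Whether the 2 pools of a group came from different mice is not given in the sources used here. In bulk RNA, fewer cells of a type and less RNA per cell cannot be told apart.

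**Figure D1:**
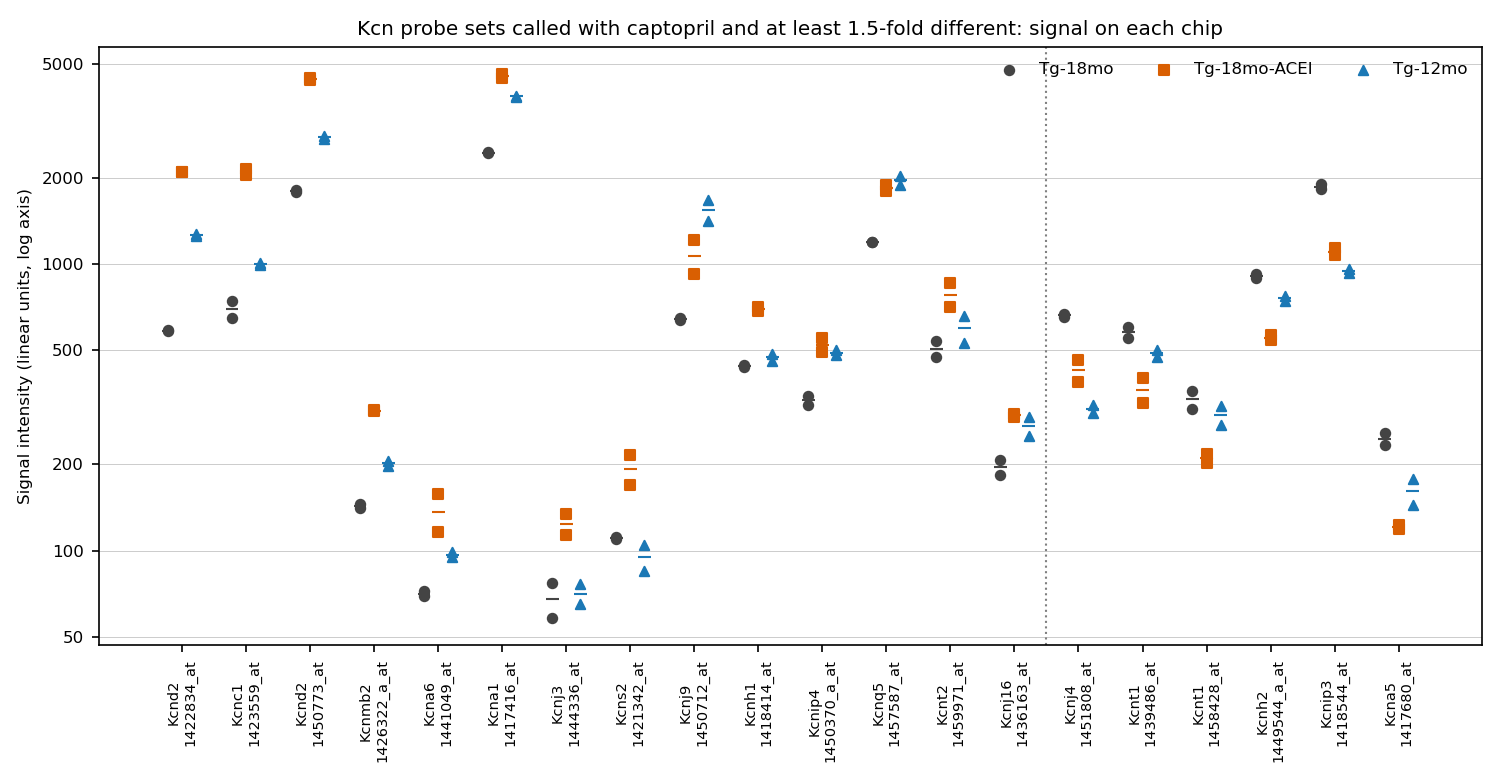
Signal intensity (log axis) on each of the 6 chips for the 20 Kcn probe sets that passed the test between Tg-18mo-ACEI (squares) and Tg-18mo (circles) and differed by at least 1.5-fold, with Tg-12mo (triangles) beside them. Short lines are group means of 2 chips, and the dotted line separates the 14 higher from the 6 lower probe sets. For Kcnd2 and Kcnc1 the Tg-12mo chips lie between those of the other groups, and for Kcnj4 and Kcnip3 below both.

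Among the voltage-gated pore subunits, 9 of 25 probe sets rose (36.0%, all probe sets 15.9%) and 2 fell (8.0%, all probe sets 17.7%) with captopril. The 9 include Kcna6 1441049_at, which was kept through the treated group alone. Kcnd2 forms the dendritic A-type channel of hippocampal neurons. Its probe set 1422834_at read 588 and 582 in untreated mice of 18 months, 2092 and 2097 with captopril and 1253 and 1276 at 12 months. The treated chips were thus the highest and the untreated chips of the same age the lowest, without overlap. The rise with captopril was 3.58-fold (log2 difference 1.84, standard error 0.06, adjusted p = 4.9e-07). The probe set 1450773_at of the same gene went from 1814 and 1784 to 4464 and 4406 (log2 difference 1.30, adjusted p = 9.5e-07), with 2736 and 2812 in Tg-12mo. The brightest Kcnd2 probe set, 1422835_at, read between 4953 and 5471 in Tg-18mo and between 5562 and 5918 in Tg-18mo-ACEI (log2 difference 0.14, standard error 0.06, adjusted p = 0.12). Kcnd2 was therefore called on 2 of its 3 kept probe sets.

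Kcnc1 forms fast delayed rectifier channels that allow neurons, among them parvalbumin interneurons, to fire at high rates. Probe set 1423559_at read 650 and 744 in the untreated mice of 18 months, 2054 and 2144 with captopril and 990 and 1009 at 12 months. The groups did not overlap, and the rise was 3.02-fold (log2 difference 1.59, standard error 0.08, adjusted p = 3.8e-06). The brighter probe set 1443855_at rose less (log2 difference 0.31, adjusted p = 0.0058), and 1456944_at had a difference of 0.01 (adjusted p = 0.89). Kcnc2, which forms channels of the same kind, rose from 2668 and 2590 to 3229 and 3402 (log2 difference 0.33, adjusted p = 0.0015). Both probe sets of Kcnc4 were not called (log2 difference -0.07 each).

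Kcna1 and Kcna2 form low-threshold delayed rectifiers of axons. Kcna1 1417416_at read 2459 and 2448 in the untreated mice of 18 months, 4479 and 4606 with captopril and 3830 and 3880 at 12 months (captopril log2 difference 0.89, standard error 0.05, adjusted p = 5.3e-06). All treated chips lay above the other chips. Kcna1 1437230_at rose by a log2 difference of 0.40, while the brightest Kcna1 probe set, 1455785_at, differed by -0.12 (adjusted p = 0.074). Kcna2 rose on 1 of 3 probe sets (1439872_at, log2 difference 0.37, adjusted p = 0.00079). Kcna6 fell on 1456954_at (log2 difference -0.30). The dim Kcna6 1441049_at passed the signal limit through the treated group alone (means 70.6 and 137), so its higher value (log2 difference 0.94) was a condition of its being kept. Each of these Kcna6 calls was lost without either Tg-18mo chip or without the first Tg-18mo-ACEI chip, with log2 differences of -0.35 to -0.20 for the former and 0.72 to 0.96 for the latter.

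Kcna5, a delayed rectifier best known from heart and smooth muscle, had the largest fall. It read 257 and 234 in the untreated mice of 18 months, 122 and 118 with captopril and 145 and 178 at 12 months. The untreated chips of 18 months were the highest of the 6. The fall was 2.04-fold (log2 difference -1.03, standard error 0.18, adjusted p = 0.0030). Kcna4, Kcnd1 and Kcnd3, the other pore subunits, had 0 of 6 probe sets called in limma with captopril, and 1 of the 6 had an unadjusted p under 0.05 (lower). Their log2 differences ran from -0.35 to 0.34.

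The cells that express these genes were also read through marker lists. The interneuron list had 8 of 10 genes lower with captopril (all probe sets 17.7%). Its summed signal was 43151 to 44198 in the untreated mice of 18 months, 36978 to 37256 with captopril and 44657 to 45389 at 12 months. Its member Pvalb, which marks the fast-spiking cells, had a mean of 2735 in the untreated mice of 18 months, 2309 with captopril and 2402 at 12 months. The list for parvalbumin cells had Pvalb and Lhx6 lower and Kcnc1 and Kcnc2, channel genes described above, higher among its 5 kept genes. Its summed signal was 8395 to 8521 in the untreated mice of 18 months, 8836 to 9240 with captopril and 8842 to 9150 at 12 months. This sum includes Kcnc1 and Kcnc2 and so is not independent of their rises described above. The list for cerebellar granule cells, a cell type rich in Kcnd2 and Kcnc1 and not part of the hippocampus, had 4 of 6 genes higher and 1 lower with captopril (all probe sets 15.9% and 17.7%). By contrast, its summed signal was 6101 to 6321 in the untreated mice of 18 months, 4787 to 5179 with captopril and 5480 to 5672 at 12 months. Gabra6, the defining marker of these cells, read 21.6 and 7.93 in the untreated mice of 18 months, 158 and 192 with captopril and 1.67 and 3.31 at 12 months, and in the same order Cbln3 read 30.3 and 26.1, 127 and 144, and 49.1 and 32.2. Both markers are among the 6 kept genes and passed the signal limit through the treated group alone. Their being highest with captopril was therefore a condition of their being kept. Kcnd2 1422834_at and Kcnc1 1423559_at were also highest with captopril. At 12 months, Gabra6 was near 0, and Kcnd2 1422834_at and Kcnc1 1423559_at were above Tg-18mo. The part of these markers in the rises with captopril was not tested.

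Silent modifier subunits, which form no channel of their own and alter the delayed rectifier of the soma, had 2 of 12 probe sets higher and 2 lower with captopril (16.7% each, all probe sets 15.9% and 17.7%). Kcns2 rose on both probe sets, from 1369 and 1340 to 1759 and 1723 on 1457325_at (log2 difference 0.36, adjusted p = 0.0014) and by 0.79 on the dim 1421342_at. The latter call was lost without either Tg-18mo chip or without the second Tg-18mo-ACEI chip, with log2 differences of 0.62 to 0.80. Kcng2 and Kcnf1 fell (log2 differences -0.46 and -0.52, adjusted p = 0.0056 and 0.029). For Kcnf1 this held on 1441300_at, and the brighter 1454768_at differed by -0.04.

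Of the 6 probe sets of the Eag, Erg and Elk channels, 1 rose (16.7%, all probe sets 15.9%) and 2 fell (33.3%, all probe sets 17.7%). Kcnh2 carries a slowly deactivating current that holds back repeated firing. It read 894 and 920 in the untreated mice of 18 months, 565 and 542 with captopril and 777 and 745 at 12 months. The treated chips were the lowest of the 6 (log2 difference -0.71, standard error 0.07, adjusted p = 0.00021). Kcnh1 1418414_at read 446 and 437 against 685 and 710 with captopril (log2 difference 0.66, adjusted p = 0.00068), whereas the brighter 1435994_at differed by -0.10 (adjusted p = 0.27). Kcnh3 fell on 1 of 3 probe sets (log2 difference -0.39).

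The M-current channels, which muscarinic receptors close, were represented by Kcnq3 and Kcnq5. Kcnq5 1457587_at rose from 1195 and 1197 to 1889 and 1803 with captopril (log2 difference 0.63, standard error 0.06, adjusted p = 0.00015), and its Tg-12mo chips read 2036 and 1895. The treated chips of 18 months and the chips of 12 months were both above the untreated chips of 18 months. On 1427426_at the difference was 0.38 (adjusted p = 0.052). Kcnq3 was not called, with a difference of 0.01 on its bright probe set 1435957_at.

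Calcium- and sodium-activated channels, with which Kcnu1 (1 probe set, not called) was counted, had 3 of 11 probe sets higher (27.3%, all probe sets 15.9%) and 2 lower (18.2%, all probe sets 17.7%). Kcnma1, the pore of the large-conductance calcium-activated channel, rose on 1425987_a_at from 1288 and 1162 to 1695 and 1674 (log2 difference 0.46, adjusted p = 0.0012) and on 1424848_at by 0.38. The second of these calls was lost without the second Tg-18mo chip or the first Tg-18mo-ACEI chip, at 0.33 and 0.31. The sodium-activated channels moved apart. Kcnt1 fell on 2 of 3 probe sets (log2 differences -0.67 and -0.68, adjusted p = 0.0033 and 0.0071), from 553 and 602 to 401 and 326 on the brighter one. Kcnt2 rose from 475 and 537 to 708 and 856 (log2 difference 0.62, adjusted p = 0.0083). Leaving out the first Tg-18mo chip or the second Tg-18mo-ACEI chip ended the call of Kcnt2 (0.53 and 0.49) and that of Kcnt1 1458428_at (-0.57 and -0.63). The small-conductance channels Kcnn1 and Kcnn2 were not called, and Kcnn2 read between 995 and 1021 on the 4 chips of 18 months.

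Inward rectifiers had 5 of 14 probe sets higher (35.7%, all probe sets 15.9%) and 1 lower (7.14%, all probe sets 17.7%) with captopril. The 5 include Kcnj3 1444336_at, which was kept through the treated group alone. Kcnj3 and Kcnj9 are subunits of the channels that inhibitory receptors open through G proteins. Kcnj3 was called higher on 3 of 4 probe sets, and the remaining 1421468_at, with a log2 difference of 0.04, was not called. On the brightest, 1455374_at, Kcnj3 rose from 2738 and 2962 to 4141 and 3987 (log2 difference 0.51, adjusted p = 0.00096). The dim 1444336_at, which passed the signal limit through the treated group alone, differed by 0.88 (adjusted p = 0.041). Its call was lost without any 1 of the 4 chips compared, at 0.68 to 1.08, and that of 1444025_at (0.29) without either Tg-18mo chip or the second Tg-18mo-ACEI chip, at 0.20 to 0.34. Kcnj9 was called on 1 of 3 probe sets, 1450712_at, which rose from 640 and 649 to 1211 and 926 (log2 difference 0.72, adjusted p = 0.0035). The lowest difference among the Kcnj9 probe sets was -0.31, without a call. Kcnj4, a strong inward rectifier of forebrain neurons, read 654 and 672 in the untreated mice of 18 months, 389 and 464 with captopril and 303 and 321 at 12 months. The groups were apart, and the fall with captopril was 1.56-fold (log2 difference -0.64, standard error 0.11, adjusted p = 0.0030). Kcnj16, a partner of the glial inward rectifier, rose on 1 of 2 probe sets (log2 difference 0.60, adjusted p = 0.012), a call that was lost without the first Tg-18mo chip or either Tg-18mo-ACEI chip, at 0.51 to 0.62. Its partner Kcnj10, the astrocyte channel, ranged from 1823 to 2975 over the 4 chips of 18 months and was not called.

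Leak channels had 1 of 9 probe sets higher (11.1%, all probe sets 15.9%) and 2 lower (22.2%, all probe sets 17.7%). Kcnk1 was called in both directions, higher on 1455896_a_at (log2 difference 0.43, adjusted p = 0.0060) and lower on the bright 1448690_at, from 5412 and 5548 to 4935 and 4702 (log2 difference -0.19, adjusted p = 0.016). The latter call was lost without the second Tg-18mo chip or the second Tg-18mo-ACEI chip, at -0.17 and -0.15. The acid-sensitive Kcnk3 fell from 322 and 336 to 263 and 234 (log2 difference -0.41, adjusted p = 0.031).

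Auxiliary subunits had 5 of 20 probe sets higher and 5 lower (25% each, all probe sets 15.9% and 17.7%), and all 5 lower ones belonged to the Kcnip genes, calcium-binding partners of the Kcnd channels. Kcnip3, which also acts as a repressor of transcription in the nucleus, read 1830 and 1903 in the untreated mice of 18 months, 1138 and 1073 with captopril and 962 and 933 at 12 months on 1418544_at. The untreated chips of 18 months stood above all others (captopril log2 difference -0.76, standard error 0.06, adjusted p = 6.3e-05). The dim 1449129_a_at of the same gene differed by -0.32 (adjusted p = 0.15). Both probe sets of Kcnip1 fell (-0.42 and -0.47), as did both of Kcnip2 (-0.36 and -0.41), though each Kcnip2 call was lost without the second Tg-18mo chip or the second Tg-18mo-ACEI chip, at -0.40 to -0.29. Kcnip4 rose on 3 of 3 probe sets, by 0.38, 0.53 and 0.64, the last from 323 and 347 to 493 and 552. Among the other auxiliary subunits, Kcnmb2, which inactivates the large-conductance channel, rose 2.16-fold on 1426322_a_at, from 140 and 146 to 308 on both treated chips (log2 difference 1.11, standard error 0.14, adjusted p = 0.00062), and differed by -0.05 on 1431844_at. Kcnab1 rose on 1 of 2 probe sets (0.37). The brightest of all kept Kcn probe sets, Kcnab2 1416956_at, read between 7851 and 8234 on the 4 chips of 18 months (log2 difference 0.00, adjusted p = 0.96). The opposite-strand transcript Kcnmb4os2 fell (-0.57, adjusted p = 0.026), while Kcnmb4 itself differed by 0.08.

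**Figure D2:**
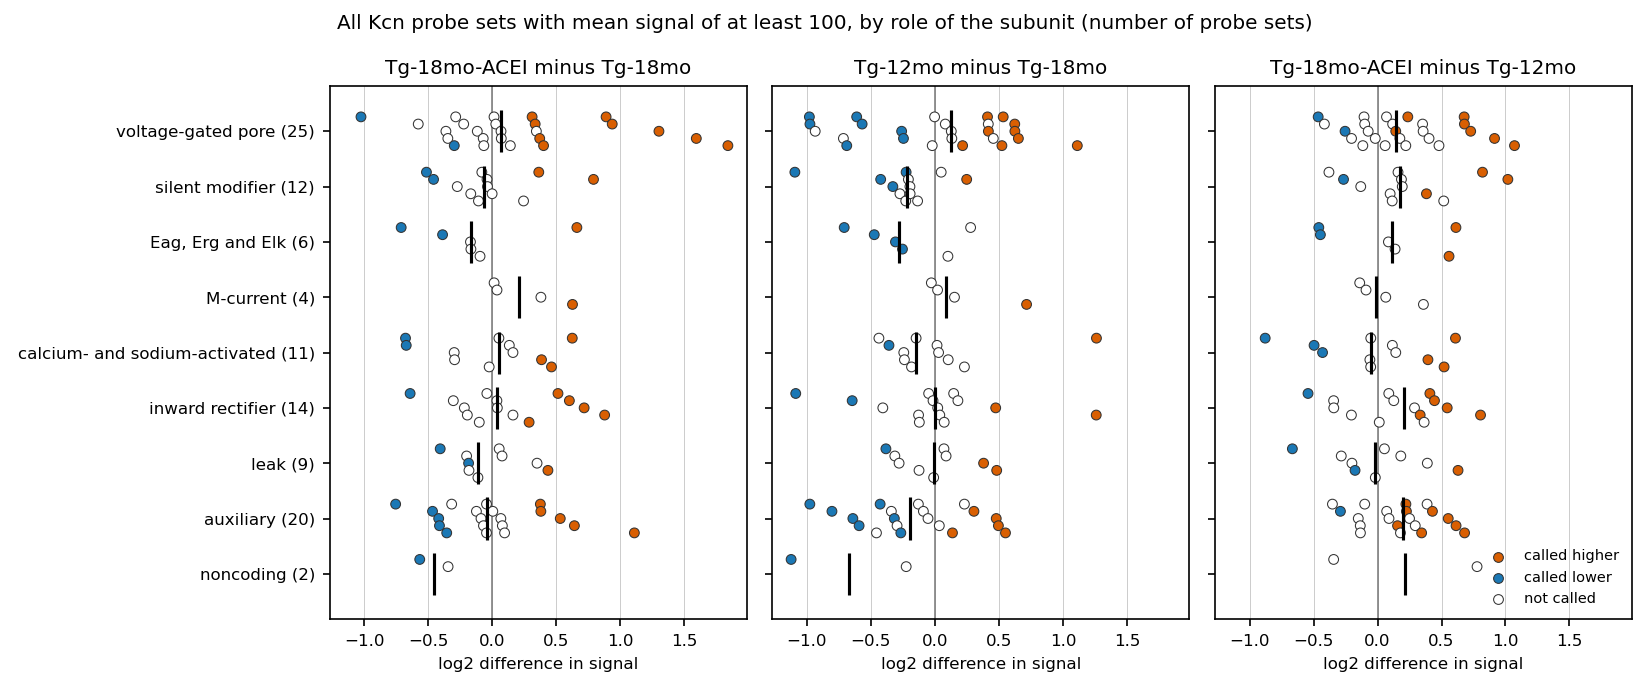
Log2 differences in signal of all 103 Kcn probe sets, grouped by the role of the subunit, in the 3 comparisons. Filled points passed the test (orange higher, blue lower), open points did not, and thick bars are medians of a role. With captopril, 9 of 25 voltage-gated probe sets were higher and 2 lower against Tg-18mo, and in each role except the M-current channels and the noncoding transcripts its points lie on both sides of 0. The 9 higher ones include Kcna6 1441049_at, which was kept through the treated group alone.

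Between Tg-12mo and Tg-18mo, which differ in age and plaque load, more Kcn probe sets were lower than higher at 12 months, as in the whole data set. Of the 103, 21 (20.4%, 16 genes) were higher and 27 (26.2%, 24 genes) lower in Tg-12mo, against 21.5% and 25.9% of all probe sets tested. This order turned with quantile normalization, to 22 higher and 20 lower, and without the second Tg-18mo chip, to 17 and 15. At least 1.5-fold differences were found for 7 higher probe sets (all probe sets 7.47%) and 13 lower ones (all probe sets 9.97%). The study's thresholds with the p of limma were passed by 3 higher (all probe sets 1.78%) and 3 lower probe sets (all probe sets 2.57%). These shares lie near those of all probe sets. The median log2 difference was -0.09, against -0.05 for all. Both this comparison and the one with captopril use the same Tg-18mo chips, so their values are given side by side and not as independent support of each other.

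Higher at 12 months were Kcnma1 1424848_at, with 1802 and 1645 against 747 and 690 in Tg-18mo (log2 difference 1.26, standard error 0.08, adjusted p = 1.6e-05), and Kcnj9 1450712_at, with 1418 and 1679 against 640 and 649 (log2 difference 1.26, standard error 0.13, adjusted p = 0.00011). In both cases the treated chips of 18 months lay between the other groups. For both genes other probe sets went the other way. Kcnma1 1428948_at was lower at 12 months by 0.36 on the log2 scale in a call that was lost without any 1 chip other than the second of Tg-12mo, at -0.41 to -0.21, and the brightest, 1425987_a_at, differed by -0.15. Kcnj9 1428602_at, with 379 and 428 against 666 and 596, was lower (log2 difference -0.65, adjusted p = 0.0011). Kcnd2 was higher at 12 months on the same 2 probe sets as with captopril (1.11 and 0.62), as were Kcna1 1417416_at (0.65), Kcna2 1439872_at (0.62), Kcnq5 1457587_at (0.72), Kcnc1 1423559_at (0.52) and Kcnip4 (3 of 3 probe sets, 0.30 to 0.55). The call of Kcnip4 1451840_at was lost without the first Tg-18mo chip or the second Tg-12mo chip, at 0.30 and 0.23.

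Lower at 12 months were Kcnj4 (303 and 321 against 654 and 672, log2 difference -1.09, standard error 0.11, adjusted p = 0.00011) and Kcnip3 1418544_at (962 and 933 against 1830 and 1903, log2 difference -0.98, standard error 0.06, adjusted p = 1.5e-05). Kcng4, a silent modifier, read 80.5 and 94.3 against 180 and 192 (log2 difference -1.09, adjusted p = 0.0026). Kcnc4 1425089_at read 146 and 220 against 373 and 336 (log2 difference -0.98, adjusted p = 0.0037). Kcna6 1456954_at read 540 and 534 against 1092 and 1022 (log2 difference -0.98, adjusted p = 6.0e-05). The chips of the groups did not overlap for these 5, which was a condition of their being named. Kcnab2 1425885_a_at (-0.80), Kcnh1 1435994_at (-0.71), Kcnd1 1455514_at (-0.69) and Kcnip2 1425870_a_at (-0.59) were lower as well, and with captopril the first 3 were not called. The Eag, Erg and Elk channels had 4 of 6 probe sets lower at 12 months and 0 higher in limma, where all probe sets had 25.9% lower and 21.5% higher. Of the 6, 1 (Kcnh3 1421619_at, log2 difference 0.28) had an unadjusted p under 0.05 for a higher value.

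Other calls of at least 1.5-fold between the ages were lost when certain chips were left out, with the sign of the difference kept. Kcna5 (-0.61) was not called without either Tg-18mo chip or the first Tg-12mo chip, at -0.68 to -0.46, nor was Kcnab3 1421790_a_at (-0.64), at -0.71 to -0.46. The noncoding Kcnq1ot1, a paternally expressed transcript of an imprinted cluster, had signals of 82.6 and 46.5 against 112 and 163 (log2 difference -1.12, adjusted p = 0.023). Its call was lost without the second chip of either group, at -0.71 and -0.85. For Kcnab2 1416956_at, higher at 12 months by 0.14 (adjusted p = 0.042), quantile normalization turned the difference to -0.07. Its call was also lost without any 1 of the 4 chips compared (0.11 to 0.16), without the signal limit, with the replicate block (adjusted p = 0.082) and without the intensity trend.

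**Figure D3:**
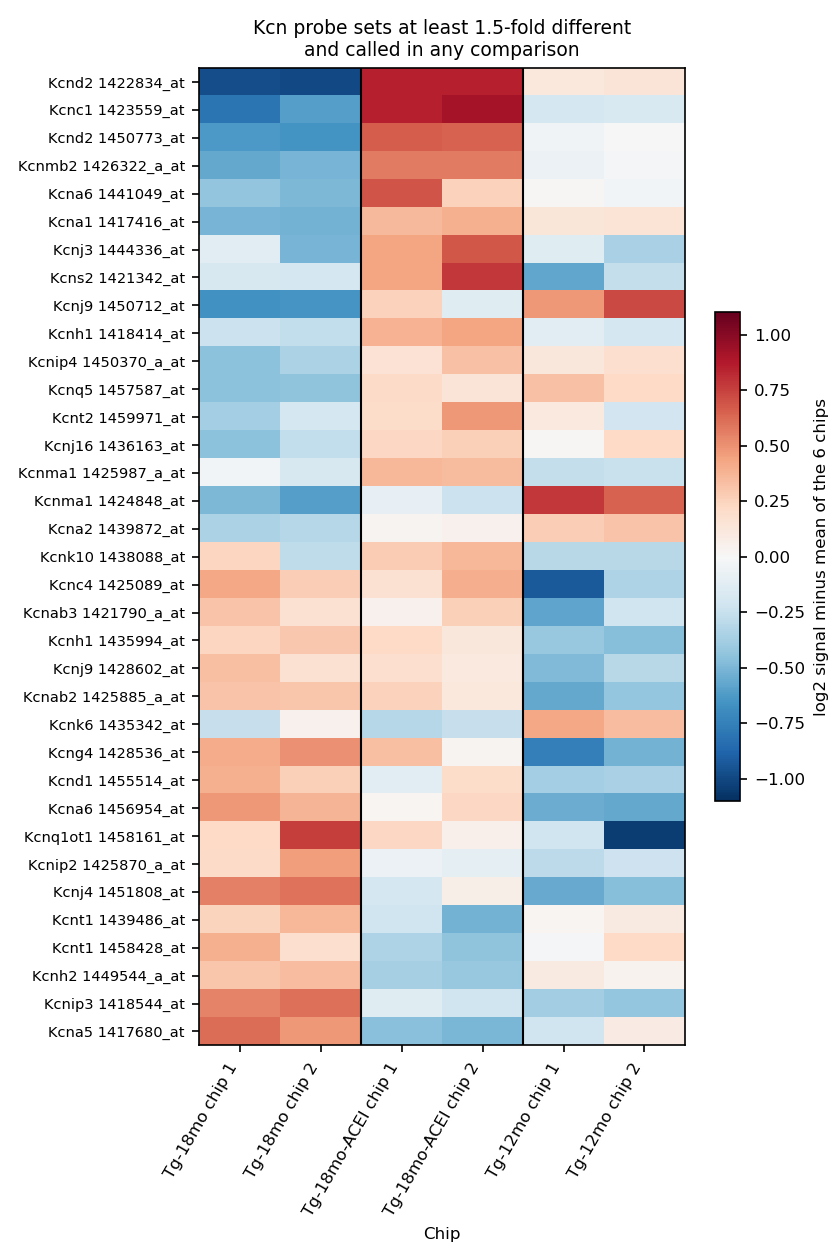
Log2 signal of each chip minus the mean of the 6 chips (red above, blue below the mean) for the Kcn probe sets that passed the test with at least a 1.5-fold difference in any of the 3 comparisons, ordered by the difference with captopril. The probe sets were chosen for differences between groups without overlap of chips, so likeness of the chips within a group follows from the choice. Tg-12mo chips lie between the groups of 18 months at the top of the map for Kcnd2 and Kcnmb2, and they are lowest for Kcnj4 and Kcng4.

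Set against the age at which treatment began, Tg-18mo-ACEI had 29 Kcn probe sets higher (28.2%, 22 genes) and 12 lower (11.7%, 11 genes) than Tg-12mo, where all probe sets had 22.3% and 17.7%. A difference of at least 1.5-fold was reached by 13 higher (all probe sets 7.7%) and 2 lower probe sets (all probe sets 5.49%), and the study's thresholds with the p of limma by 2 higher (all probe sets 2.05%) and 0 lower ones (all probe sets 1.24%), where 12 lower ones had passed on the adjusted p alone and 17 had an unadjusted p under 0.05. The median was 0.13, against 0.05 for all probe sets. Kcnc1 1423559_at was 2.10-fold higher in the treated mice than at 12 months (log2 difference 1.07, standard error 0.08, adjusted p = 3.1e-05), and Kcnd2 was higher on the same 2 probe sets (0.73 and 0.68). On these probe sets the treated mice thus differed from Tg-12mo in the same direction as from Tg-18mo, in comparisons that share the treated chips. The brightest probe sets of Kcnc1 and Kcnd2 differed from Tg-12mo by -0.10 and 0.06 and were not called. Kcnc1 was called on 1 of 3 probe sets, and its lowest difference was -0.11. Kcnab2 1425885_a_at, Kcna6 1456954_at (0.68 each), Kcnma1 1425987_a_at (0.61) and Kcnh1 1435994_at (0.61) were higher, and Kcnc4 1425089_at (0.91), Kcng4 (0.82) and Kcns2 1421342_at (1.02) were higher unless 1 Tg-18mo-ACEI chip was left out (0.80, 0.67 and 0.85). Kcnmb2 (0.61) and Kcnk10 (0.63) lost their calls without either Tg-18mo-ACEI chip, at 0.61 and at 0.59 and 0.67, and Kcnk10 and Kcnj3 1444336_at (0.80), the latter kept through the treated group alone, also without either Tg-12mo chip. Lower in the treated mice were Kcnma1 1424848_at, with 987 and 889 against 1802 and 1645 (-0.88, adjusted p = 9.6e-05), and the leak channel Kcnk6, with 243 and 254 against 407 and 382 (-0.67, adjusted p = 0.0049).

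Probe sets of a gene often disagreed. Of the 58 genes, 32 had several kept probe sets. With captopril, 16 of these had at least 1 probe set higher and in 9 of the 16 the brightest was among them, 8 had at least 1 lower and in 6 the brightest was among them, and 2, Kcna6 and Kcnk1, had calls in both directions, that of Kcna6 through 1441049_at described above. All kept probe sets were called the same way in 4 genes, Kcnip1, Kcnip2, Kcnip4 and Kcns2. The median distance between the highest and the lowest log2 difference of a gene was 0.40 with captopril and 0.68 between Tg-12mo and Tg-18mo, where 5 genes (Kcna1, Kcna4, Kcnab2, Kcnj9 and Kcnma1) had calls in both directions. Which part of the transcript each probe set reads was not analysed here.

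**Figure D4:**
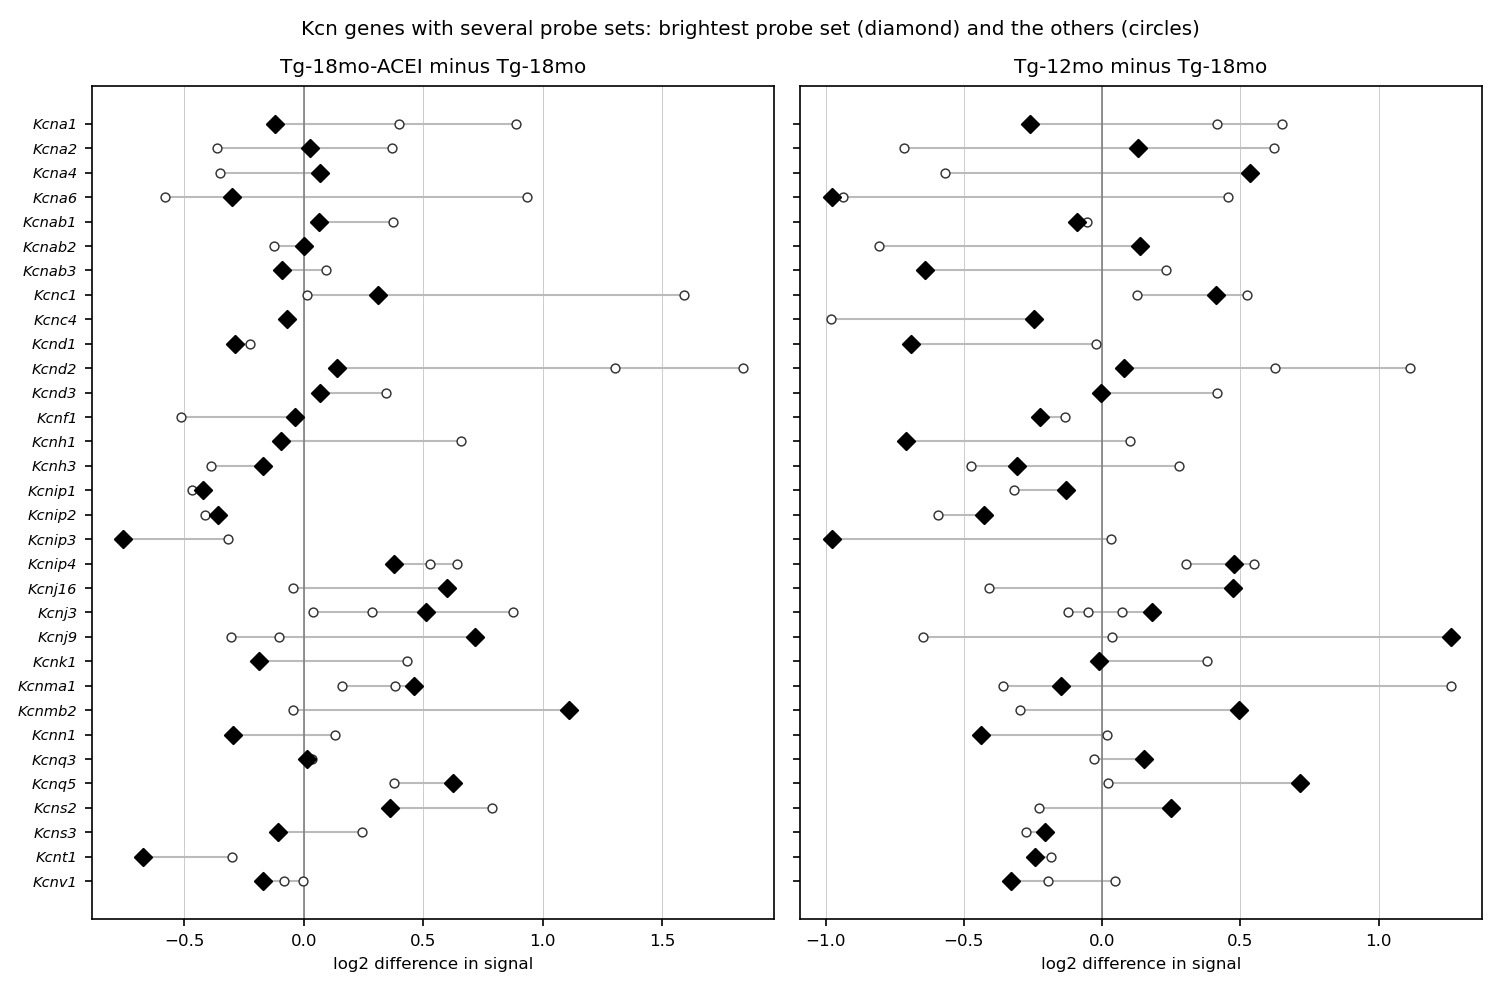
Log2 difference of each probe set for the 32 Kcn genes with several kept probe sets, with captopril (left) and between Tg-12mo and Tg-18mo (right). Diamonds are the probe set with the highest mean signal, circles the others. With captopril, the diamonds of Kcnd2 and Kcna1 lie near 0 while other probe sets of these genes reach 1.84 and 0.89.

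Genes outside the Kcn symbols whose products bind, anchor or modify potassium channels were read from a list of 34 genes, of which 25 were kept, with 63 probe sets. With captopril 11 of these probe sets were higher and 11 lower (17.5% each, all probe sets 15.9% and 17.7%). At 12 months 11 were higher (17.5%, all probe sets 21.5%) and 24 lower (38.1%, all probe sets 25.9%) than at 18 months. Against Tg-12mo the treated mice had 25 higher (39.7%, all probe sets 22.3%) and 7 lower (11.1%, all probe sets 17.7%). Their median log2 differences were 0.01, -0.21 and 0.24, beside -0.04, -0.05 and 0.05 for all probe sets. The 6 genes with the largest called differences in any comparison were Abcc9, Vapb, Cntn2, Akap5, Ank3 and Dlg2. Akap5, which anchors kinases and phosphatases at channels, rose on all 3 kept probe sets with captopril, on 1431717_at from 146 and 163 to 356 and 381 (1.25, adjusted p = 0.0028) and on the brightest, 1436142_at, by 0.46. Ank3, the scaffold of the axon initial segment, rose on 1451628_a_at from 1851 and 1799 to 3424 and 3250 (0.87, adjusted p = 1.2e-05) and on 1425202_a_at by 0.81, while the brightest, 1452124_at, differed by 0.03 (adjusted p = 0.59). Vapb, a protein of the endoplasmic reticulum membrane, moved in both directions with captopril, higher on 1458501_at (1.10) and lower on 1423152_at (-0.25), and likewise at 12 months (0.998 and -1.75). Its brightest probe set, 1436079_s_at, was called in neither.
At 12 months, Abcc9, the receptor subunit of the channel that ATP closes in vessels, was lower on both probe sets, on 1435752_s_at with 182 and 189 against 431 and 440 (-1.23, adjusted p = 9.2e-05) and on the dim 1435751_at by a log2 difference of -2.08. Cntn2, which gathers Kcna channels beside the node, was lower on both as well, on 1435165_at with 603 and 631 against 1399 and 1433 (-1.20, adjusted p = 1.4e-05) and on 1435166_at with a difference of -1.001. Dlg2, a scaffold of Kcna channels, was called on 1421200_at alone, with 120 and 128 in the treated mice against 47.2 and 67.2 in Tg-12mo (1.14, adjusted p = 0.023), a probe set that passed the signal limit through the treated group alone. Kcnj8, the pore partner of Abcc9 in vessels, read 147 and 169 in Tg-12mo and 151 and 160 in Tg-18mo and was not called.

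Of the 58 genes, 43 were called on at least 1 probe set in at least 1 comparison and 15 in none. The latter were Kcnd3, Kcne1l, Kcne4, Kcnj8, Kcnj10, Kcnj11, Kcnj12, Kcnk4, Kcnk12, Kcnk13, Kcnn1, Kcnn2, Kcnq3, Kcns3 and Kcnu1. Among them are bright members such as Kcnd3 1435720_at, an A-type pore with signals of 2960 to 3274 on the 6 chips, and Kcnq3 1435957_at, with 3539 to 4381. A missing call at 2 chips a group does not show that levels were equal.

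The labelled tissue was checked by markers. All 7 annotated genes of the pyramidal neuron list and all 8 of the dentate granule list passed the signal limit, and their summed signals ranged from 31440 to 35077 and from 17107 to 18868 over the 6 chips. Lists for other cells and for tissue around the hippocampus differed between the groups. With captopril, 11 of 12 choroid plexus, 6 of 6 ependymal and 6 of 8 meningeal genes were lower and 0 higher in limma, and 0 were higher at an unadjusted p under 0.05. Among all probe sets, 17.7% were lower and 15.9% higher. Summed signals of the lists for thalamic neurons (4 of 8 genes lower, 1 higher), striatal projection neurons (3 of 7 lower, 1 higher) and oligodendrocytes (3 of 6 lower) were also lower with captopril, at 5427 to 5436 against 6864 to 6922, 5690 to 5721 against 7057 to 7567, and 46382 to 48368 against 53287 to 54907. At 12 months the sums of the choroid plexus, meningeal and oligodendrocyte lists were above Tg-18mo. They were 46906 to 47373 against 28835 to 31126, 12025 to 12055 against 8661 to 8785, and 73341 to 73819. Of their genes, 2 of 12, 3 of 8 and 3 of 6 were higher and 4, 1 and 2 lower (all probe sets 21.5% and 25.9%). The thalamic and striatal sums were below Tg-18mo, at 5562 to 5590 and 5446 to 5708. Of vascular smooth muscle and pericyte genes, 5 of 8 were lower with captopril (all probe sets 17.7%) and 5 of 8 lower at 12 months (all probe sets 25.9%), beside the falls of Kcna5 in both comparisons. Summed signals of that list were 11504 to 11807 in the untreated mice of 18 months, 8509 to 8643 with captopril and 8194 to 8440 at 12 months, and their part in the fall of Kcna5 was not tested. The control probe set for 18S ribosomal RNA read 10219 and 11144 on the Tg-18mo chips and 1999.95 to 2214 on the other 4, and the 3′/5′ ratio of β-actin was 1.88 to 1.98 for untreated mice of 18 months, 1.38 to 1.45 with captopril and 1.77 to 1.83 at 12 months. Spiked poly-A controls averaged 201 to 208, 474 to 483 and 1397 to 1403 in these groups. Hybridisation controls averaged 4125 to 4574 on the chips of 18 months and 9938 on both Tg-12mo chips. The control values thus moved with the groups, and technical differences between the sets of chips cannot be told apart from the groups.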

How the data were processed

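Hippocampal RNA of Tg2576 mice, pooled from 4 animals per chip, was hybridized to 6 Affymetrix chips, 2 for each of the groups Tg-18mo, Tg-18mo-ACEI and Tg-12mo. The deposited values are signal intensities on a linear scale. The authors made them with the Affymetrix software GCOS at a target value of 600. The chips hold 45101 probe sets. After removal of 64 controls, those with a group mean of 100 or more entered the test, 23262 probe sets in all, 12325 genes with a single symbol among them. Arrays give no counts, so the number of chips limits the precision. Gene names are those of the platform annotation given with the data.

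Log2 signals of all 6 chips were fitted, 1 mean per group, with lmFit and then eBayes (trend = TRUE) of limma 3.58.1 in R 4.3.3, which left 3 residual and 5.37 prior degrees of freedom. Adjustment was by Benjamini-Hochberg over the whole test, and calls were made under 0.05. The fit was tested on simulated data. The Kcn members, the list of channel partners, the marker lists and the rule for naming probe sets were chosen with earlier results of these data known. Named were all kept probe sets of the channel genes that the study lists, those called with at least a 1.5-fold difference and no overlap of chips (at most 15 each way), the brightest of each family, the other probe sets of these genes and the 6 genes of the partner list with the largest called differences in any comparison. 2 genes of this rule were not analysed here.

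Alternative settings were an offset of 32, tests without a signal filter, a mean of at least 200, quantile normalization, division by the chip median, fits of only the chips compared, a replicate block, a constant prior variance, the methods' t-test, the brightest probe set of each gene, probe sets without an _a, _s or _x suffix, leaving out each chip and, chosen after seeing the data, members with a mean of 100 in 2 or more groups. Promoter windows are RefSeq sequences of build GRCm38.p6. Figures were drawn with Python 3.11.15, pandas 2.3.3 and matplotlib 3.10.9.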

Additional observations from a re-analysis of the deposited data

How the results depend on the processing

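With captopril against Tg-18mo, leaving out single chips gave 21 to 28 higher and 8 to 19 lower Kcn probe sets (lowest without the second Tg-18mo-ACEI chip), and a median log2 difference of -0.0250 to -0.00269. Between Tg-12mo and Tg-18mo these ranges were 16 to 21, 15 to 26 (lowest without the second Tg-18mo chip) and -0.126 to -0.0678, and between Tg-18mo-ACEI and Tg-12mo 18 to 30, 6 to 12 and 0.114 to 0.137 (both lowest counts without the second Tg-18mo-ACEI chip). The methods' t-test at the study's thresholds called 4 higher and 1 lower, 2 and 2, and 1 and 0 probe sets in these comparisons, and limma's p at the same thresholds 4 and 1, 3 and 3, and 2 and 0. After Benjamini-Hochberg adjustment the methods' t-test called 2 and 0, 4 and 3, and 2 and 0, with 22 and 15, 17 and 17, and 21 and 7 at an unadjusted p under 0.05. With the brightest probe set of each gene, 11 were higher and 12 lower, 11 and 19, and 15 and 8, so that higher calls no longer prevailed with captopril against Tg-18mo. Quantile normalization gave 22 higher and 20 lower between the ages. The median with captopril was 0.00807 at a mean of at least 200, 0.00437 after division by the chip median, -0.0579 with the brightest probe set of each gene and -0.00202 with plain probe sets. Between the ages it was -0.0216 at a mean of at least 200 and -0.0361 after quantile normalization. Between Tg-18mo-ACEI and Tg-12mo it was 0.117 with 32 added, 0.115 at a mean of at least 200, 0.0748 after quantile normalization, 0.144 after division by the chip median, 0.116 with the brightest probe set, 0.116 with plain probe sets and 0.117 with those that reached a mean of 100 in 2 or more groups, a setting chosen after seeing the data. Quantile normalization turned Kcnab2 1416956_at to -0.0702 (adjusted p = 0.15) between the ages and to 0.126 (adjusted p = 0.026) between Tg-18mo-ACEI and Tg-12mo. The causes were not tested. Of 3102 alternative values for the 70 named probe sets in limma and the methods' t-test, 2794 kept the call or its absence (54 without a call changed sign), 277 lost the call, 29 gained one and 2 reversed. The replicate block gave 25 and 17, 20 and 27, and 23 and 12 calls. The replicate numbers do not pair the samples (correlations of deviations -0.03, 0.03 and -0.05). With 2 pooled chips a group, intervals are wide for dim probe sets, and every group is 1 set of chips.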
